A study of Mus musculus with 106 samples.

Results

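H3K27ac and H3K4me3 were compared within the same bone marrow-derived macrophages (BMDMs) after stimulation with lipopolysaccharide (LPS) and interferon-γ (IFN-γ). The comparison used 24 peak lists of the 70 read here, chosen by their titles as stimulated BMDM and joined into 12 pairs by disease group and replicate number. A pair is an H3K27ac list and an H3K4me3 list whose peak names state the same input library. The whole series has 106 samples, and the 36 inputs (chromatin sequenced with no antibody step) were not used. In all, 6 pairs came from control mice and 6 from diabetic mice, all wild-type C57BL/6J randomized at 12 to 14 weeks of age. Diabetes was induced with streptozotocin, which destroys insulin-producing beta cells, at 42 to 45 mg/kg per day for 5 days, and marrow was collected 6 weeks later if blood glucose exceeded 13.9 mmol/L. No vehicle is named for the controls. Marrow of both groups was differentiated for 7 days with L929-conditioned medium in 5 mmol/L glucose and then received 100 ng/mL LPS with 10 ng/mL IFN-γ for 16 h. The model therefore reads cultured cells that had all left the diabetic milieu, and the sources do not say whether each replicate is 1 mouse.

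H3K4me3 is a methyl mark that lies over the starts of active and poised genes, and it is laid down most strongly where the DNA is rich in CpG pairs. H3K27ac is an acetyl mark found at active promoters and at active enhancers away from genes. In macrophages, LPS acts through Toll-like receptor 4 and nuclear factor-κB (NF-κB), and IFN-γ acts through Janus kinases. The induced genes include cytokines, chemokines, and feedback inhibitors of the same signals.

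Each list holds intervals called against the local background, with a −log10 p that rates a peak within its own library. The lists held 52470 to 176559 H3K27ac peaks (median, 111612) and 51382 to 277213 H3K4me3 peaks (median, 137890). Because a longer list covers more promoters, the 10000 peaks with the highest −log10 p of each list, called top peaks below, were compared. A promoter reached 1000 bp to either side of any start of 21938 protein-coding genes, and a distal peak lay farther than that from every annotated start. A pair of replicates stood apart: control pair 3 and diabetic pair 3 had the lowest promoter shares and the highest distal shares of their groups for both marks. The library labeled H3K27ac control LPS+IFN-γ replicate 5 also went against its label, holding 5 of 26 regions that marked all diabetic stimulated and no diabetic unstimulated libraries and 25 of 27 regions of the reverse kind, whereas the other 5 control libraries held 13 to 25 and 1 to 8. Results are given below with and without these pairs where they changed.

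The 300-base windows shown here stand for the patterns described below: promoters with both marks (Irf1, Nfkbia), mainly H3K27ac (Irak1), mainly H3K4me3 (Spry1), or neither among the top peaks (Il1b, Il6), and a distal site of each mark. Promoter windows run from 250 bases before to 50 bases after the outermost annotated start of the gene. Distal windows are centered on the summit of the strongest peak of either mark in the region, on the plus strand. All are RefSeq sequence of build GRCm38.p6, written 5′ to 3′ on the strand given with CG pairs in capitals.
Irf1 promoter, chr11:53769764-53770063, plus strand, 32 CG pairs: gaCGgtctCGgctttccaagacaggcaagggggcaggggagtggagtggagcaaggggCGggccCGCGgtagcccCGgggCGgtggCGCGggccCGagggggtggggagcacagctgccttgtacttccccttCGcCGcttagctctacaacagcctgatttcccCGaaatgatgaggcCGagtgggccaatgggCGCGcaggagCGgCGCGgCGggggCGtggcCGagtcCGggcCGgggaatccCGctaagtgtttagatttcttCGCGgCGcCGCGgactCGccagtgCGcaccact
Nfkbia promoter, chr12:55492598-55492897, minus strand, 15 CG pairs: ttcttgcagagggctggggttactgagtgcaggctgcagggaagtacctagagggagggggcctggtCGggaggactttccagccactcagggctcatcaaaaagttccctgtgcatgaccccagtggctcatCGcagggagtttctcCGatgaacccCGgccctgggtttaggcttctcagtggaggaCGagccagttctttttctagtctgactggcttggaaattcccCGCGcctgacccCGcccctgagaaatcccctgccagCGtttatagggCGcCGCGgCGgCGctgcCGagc
Irak1 promoter, chrX:74023869-74024168, minus strand, 22 CG pairs: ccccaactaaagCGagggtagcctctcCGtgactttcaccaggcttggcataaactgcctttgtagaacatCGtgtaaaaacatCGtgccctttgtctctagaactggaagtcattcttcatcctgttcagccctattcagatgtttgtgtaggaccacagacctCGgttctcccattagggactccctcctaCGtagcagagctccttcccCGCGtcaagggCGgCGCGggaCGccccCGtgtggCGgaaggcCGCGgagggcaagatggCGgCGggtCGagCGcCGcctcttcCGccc
Spry1 promoter, chr3:37639697-37639996, plus strand, 29 CG pairs: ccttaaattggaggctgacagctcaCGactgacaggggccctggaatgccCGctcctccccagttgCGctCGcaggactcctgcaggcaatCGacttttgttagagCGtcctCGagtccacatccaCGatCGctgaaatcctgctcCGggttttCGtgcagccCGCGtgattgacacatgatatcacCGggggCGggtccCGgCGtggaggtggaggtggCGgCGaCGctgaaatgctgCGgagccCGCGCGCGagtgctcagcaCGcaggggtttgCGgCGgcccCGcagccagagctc
Il1b promoter, chr2:129371090-129371389, minus strand, 3 CG pairs: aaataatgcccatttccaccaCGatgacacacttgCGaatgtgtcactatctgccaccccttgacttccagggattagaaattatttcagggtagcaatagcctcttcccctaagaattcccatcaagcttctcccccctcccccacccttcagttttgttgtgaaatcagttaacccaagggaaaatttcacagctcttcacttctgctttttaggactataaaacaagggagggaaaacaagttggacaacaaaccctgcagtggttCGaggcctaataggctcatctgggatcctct
Il6 promoter, chr5:30012864-30013163, plus strand, 3 CG pairs: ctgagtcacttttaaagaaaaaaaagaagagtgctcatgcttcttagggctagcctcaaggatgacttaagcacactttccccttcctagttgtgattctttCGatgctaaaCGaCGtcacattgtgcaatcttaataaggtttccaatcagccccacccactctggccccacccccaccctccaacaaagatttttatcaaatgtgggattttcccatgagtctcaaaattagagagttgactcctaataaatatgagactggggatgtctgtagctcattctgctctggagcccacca
Distal site 1882 bp from Nos2, chr11:78917085-78917384, 5 CG pairs: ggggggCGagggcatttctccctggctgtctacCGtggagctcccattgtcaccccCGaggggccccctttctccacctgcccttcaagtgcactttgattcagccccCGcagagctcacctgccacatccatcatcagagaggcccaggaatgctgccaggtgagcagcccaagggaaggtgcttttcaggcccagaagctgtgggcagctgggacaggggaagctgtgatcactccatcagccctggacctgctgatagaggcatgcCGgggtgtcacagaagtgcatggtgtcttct
Distal site 6530 bp from Neurog2, chr3:127626107-127626406, 17 CG pairs: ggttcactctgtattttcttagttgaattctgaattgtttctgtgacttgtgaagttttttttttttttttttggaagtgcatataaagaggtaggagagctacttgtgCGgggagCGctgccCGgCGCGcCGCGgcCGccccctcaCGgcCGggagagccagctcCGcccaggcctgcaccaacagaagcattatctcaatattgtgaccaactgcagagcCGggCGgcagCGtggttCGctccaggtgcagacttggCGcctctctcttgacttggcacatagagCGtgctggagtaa

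The first question was how many promoters carried which mark. In each pair most marked promoters carried both: the share of protein-coding genes with both marks among the top peaks ran from 23.6% in diabetic pair 3 to 35.9% in diabetic pair 6 (median, 32.3%; mean, 31.5% ± 3.87 [SD], n = 12). H3K4me3 alone was found at 9.20% ± 1.69 of genes and H3K27ac alone at 7.68% ± 1.38, and 51.6% ± 1.90 had neither. The plot of promoter classes by pair shows control pair 3 and diabetic pair 3 lowest for both marks, and the other 10 pairs between 30.7% and 35.9%.

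**Figure D1:**
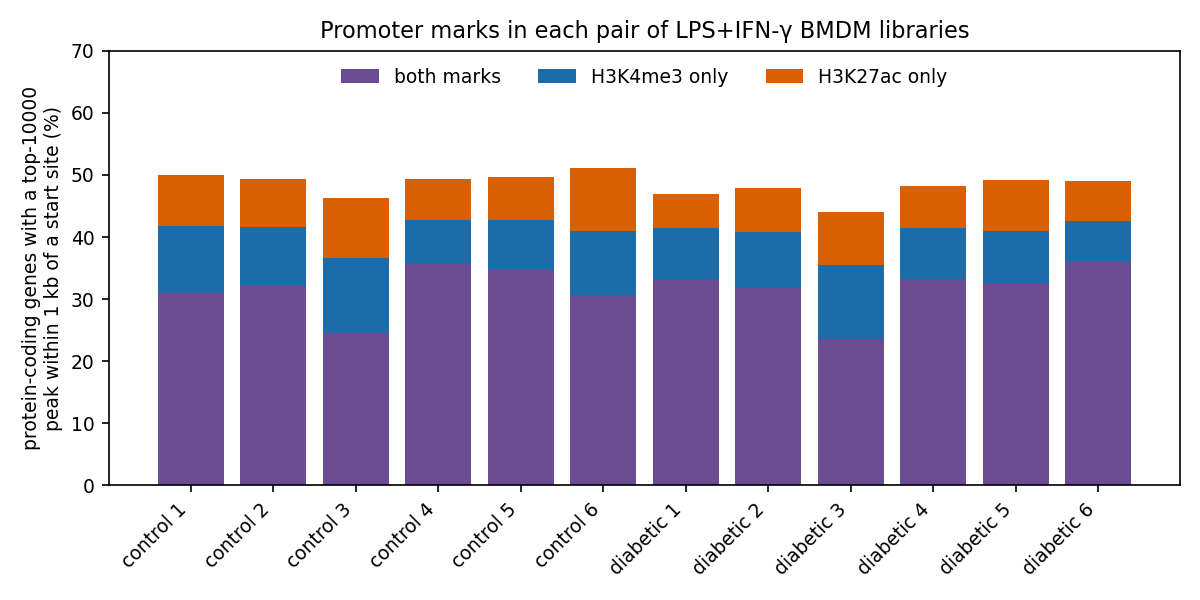
Percentage of protein-coding genes with a top-10000 peak of both marks, H3K4me3 only, or H3K27ac only within 1000 bp of a start, stacked for each of the 12 pairs. The share with both marks was lowest in diabetic pair 3 (23.6%) and highest in diabetic pair 6 (35.9%).

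H3K4me3 reached more promoters and H3K27ac more distal sites within lists of equal length. The promoter share was 40.8% ± 2.34 of genes for H3K4me3 and 39.2% ± 3.06 for H3K27ac, a difference of 1.53 points that had the same sign in 12 of 12 pairs (two-sided exact sign-flip permutation, P=0.000488, adjusted P=0.000732 over 6 tests; this P is the smallest that the sign arrangements of 12 pairs can give). Distal peaks made up 15.2% ± 5.36 of the H3K27ac top peaks and 10.6% ± 3.33 of the H3K4me3 top peaks, a difference of 4.59 points in 12 of 12 pairs (same exact test, P=0.000488, adjusted P=0.000732). By distance, 5.78% ± 1.82 of H3K27ac top peaks lay 1 to 5 kb, 8.83% ± 3.30 lay 5 to 50 kb, and 0.578% ± 0.277 lay over 50 kb from the nearest start. Both differences depended on the list that was compared: with peaks ranked by fold enrichment they were −6.04 and −10.0 points, with the top 5000 peaks −0.107 and 1.31 points, and in the lists as deposited the distal difference was −0.582 points.

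The marks met at promoters far more than elsewhere. Of H3K27ac promoter top peaks, the percentage that overlapped an H3K4me3 top peak of the same pair was lowest at 61.8% in control pair 3 and highest at 81.9% in diabetic pair 6 (median, 75.5%). Of distal H3K27ac top peaks it ran from 11.2% in control pair 1 to 29.5% in diabetic pair 6 (median, 20.9%). The ranges did not overlap, and the mean difference was 54.9 points in 12 of 12 pairs (exact sign-flip permutation, P=0.000488, adjusted P=0.000732). With the marks exchanged, 72.5% ± 6.67 of promoter and 30.1% ± 7.74 of distal H3K4me3 top peaks overlapped H3K27ac, a difference of 42.4 points in 12 of 12 pairs (same P and adjusted P by the exact test). By distance, 22.0% ± 6.07 of H3K27ac top peaks at 1 to 5 kb, 18.8% ± 6.08 at 5 to 50 kb, and 10.8% ± 4.07 beyond 50 kb overlapped H3K4me3. Against the full H3K4me3 list of the pair, 84.3% ± 15.5 of distal H3K27ac top peaks overlapped some peak, but 47.0% in control pair 3 and 60.3% in diabetic pair 5, compared with 81.4% to 97.1% in the other 10 pairs. Against the full H3K27ac list, 87.8% ± 10.9 of distal H3K4me3 top peaks overlapped some peak, lowest in control pair 3 (59.6%).

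**Figure D2:**
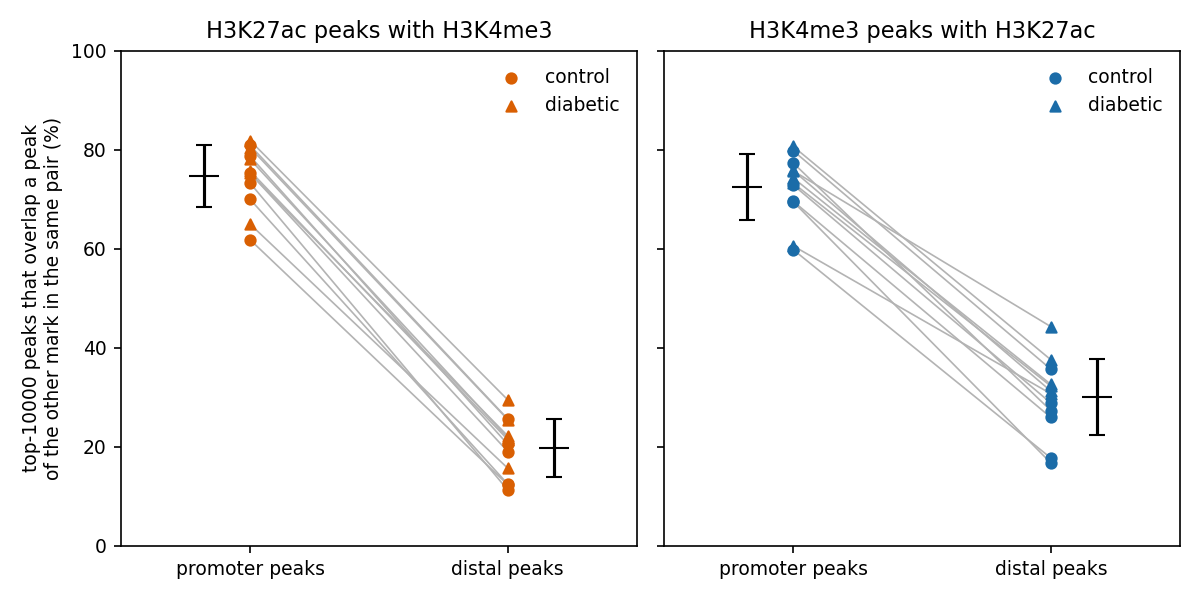
Percentage of top-10000 peaks that overlapped a top-10000 peak of the other mark in the same pair, for promoter and distal peaks; gray lines join a pair, circles are control and triangles diabetic, and bars are mean ± SD (n = 12). All 12 pairs fell from promoter to distal peaks in both panels, from 74.7% to 19.7% on average for H3K27ac and from 72.5% to 30.1% for H3K4me3.

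At promoters the marks had nearly the same position but not the same width. The median distance of a promoter summit from the nearest start was 164 bp ± 10.2 for H3K27ac and 163 bp ± 14.2 for H3K4me3, a difference of 0.5 bp (exact sign-flip permutation, P=0.816). Summits lay downstream of the start for 76.6% ± 1.38 of H3K27ac and 75.7% ± 1.48 of H3K4me3 promoter peaks. Median promoter peak width was 1175 bp ± 197 for H3K27ac and 1012 bp ± 146 for H3K4me3, wider for H3K27ac in 11 of 12 pairs (difference, 164 bp; exact P=0.000977, adjusted P=0.00117). The highest −log10 p of a list ran from 91.6 to 391.5 for H3K27ac and from 58.9 to 171.2 for H3K4me3. The part of this peak strength in the called width was not tested. The summit difference was 7.63 bp with the top 20000 peaks and passed the test there (adjusted exact P=0.00391).

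Which promoters were steady was read from classes held in at least 10 of the 12 pairs. Both marks were steady at 4757 genes (21.7%), H3K4me3 only at 322 (1.47%), H3K27ac only at 115 (0.524%), and neither at 9734 (44.4%); the other 7010 changed class between pairs. A gene of a 1-mark class mostly had a weaker peak of the other mark. Of the 322 H3K4me3-only genes, 302 had an H3K27ac peak in at least 10 full lists, and of the 115 H3K27ac-only genes, 112 had an H3K4me3 peak in at least 10. Of the 9734 genes with neither, 4649 had no H3K27ac and 3976 no H3K4me3 promoter peak in any of the 12 lists. Without control pair 3 and diabetic pair 3 the 1-mark classes held 562 and 210 genes (held in at least 8 of the other 10 pairs), and with the full lists 187 and 10.

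CpG content went with these classes, although the rule did not use sequence. The class counts a peak at any start of a gene, but the window lies at its outermost start. In a gene with several starts, the window need not be the marked promoter. In the 300-base window, a CpG ratio (CG pairs observed over those expected from base composition) of 0.6 or more was found in 79.0% of promoters with both marks, 68.0% with H3K4me3 only, 67.0% with H3K27ac only, and 10.98% with neither. The Irf1 window above has 32 CG pairs and the Il6 window has 3. Inflammatory promoters (164 genes of 7 lists) were mostly CpG-poor, with 17.7% at or above the ratio, compared with 44.4% of all promoters.

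**Figure D3:**
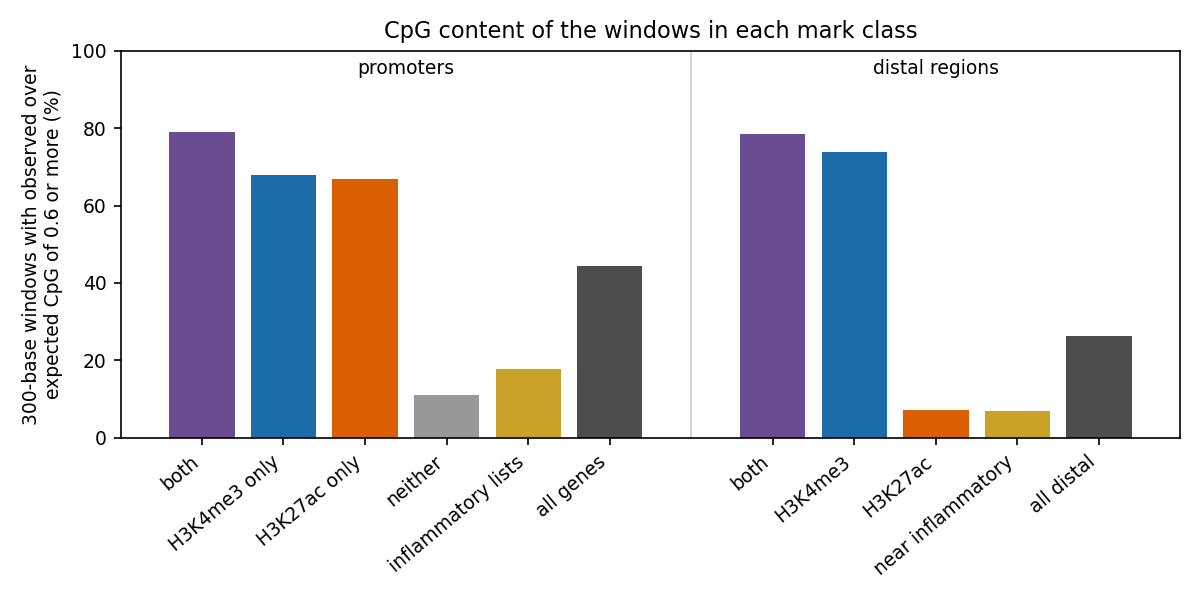
Percentage of 300-base windows with an observed-over-expected CpG ratio of 0.6 or more, for promoter classes (left of the line) and distal regions (right). Promoter windows lie at the outermost annotated start of each gene. Promoters with both marks (79.0%) and distal regions called for H3K4me3 (73.8%) stood high, and promoters with neither mark (10.98%) and distal regions called for H3K27ac (7.10%) stood low.

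Agreement of the ranks was moderate. Across the genes that had a promoter peak of both marks in the full lists of a pair (11842 to 15750 genes), Spearman rho between the best −log10 p of each mark was lowest at 0.349 in control pair 3, had a median of 0.582, and was highest at 0.723 in diabetic pair 6. It is a description across genes, which are not independent, and the points share a library pair and an input. Limiting it to genes with both marks among the top peaks gave a median of 0.199, and ranking by fold enrichment gave 0.314. To compare genes, each mark was turned into a percentile among the genes of the pair with both marks (100, strongest), and the H3K27ac percentile minus the H3K4me3 percentile was the rank difference in points.

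The rank difference was tested by limma for the 13389 genes with both marks in at least 8 pairs. H3K27ac ranked higher by at least 20 points at an adjusted P under 0.05 at 2112 genes (15.8%), and H3K4me3 ranked higher at 2359 (17.6%). With percentiles taken among all genes that had the mark, the split was 1463 to 2875, and the median rank difference of all genes was −1.48 rather than 1.49 points. Over the pairs, the percentiles of the marks did not overlap at 212 genes with H3K27ac higher (1.58%) and at 326 with H3K4me3 higher (2.43%). Of the 4757 genes steady for both marks, 634 were called for H3K27ac and 236 for H3K4me3, with a median rank difference of 4.66 points. All 114 tested H3K27ac-only genes were called for H3K27ac, and all 317 tested H3K4me3-only genes for H3K4me3. The classes use the same −log10 p as the rank difference. A call given below for a gene of a 1-mark class therefore restates the class and adds no support. Of the called genes, 536 of 4471 share both peaks with another gene and cannot be told apart from it.

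Genes with the largest rank difference toward H3K27ac included Sugt1, a cochaperone used in innate immune sensing, and Id2, an inhibitor of basic helix-loop-helix transcription factors. The H3K27ac percentile of Sugt1 was 69.4 at the lowest, 93.3 at the median, and 98.6 at the highest of the 12 pairs, and its H3K4me3 percentile was 0.473, 13.7, and 42.0. The marks did not overlap, and the rank difference was 71.9 points (SE, 4.24; limma adjusted P=2.32e-09; positive in 12 of 12 pairs). The H3K27ac percentile of Id2 ran from 44.8 to 97.8 (median, 87.2) and its H3K4me3 percentile from 3.83 to 43.8 (median, 14.0), again with no overlap and a rank difference of 67.3 points. Others among the 10 highest were Unk (67.4 points), Hexa (65.9), Zfp868 (65.2), Ttc32 (64.4), Snrnp35 (62.3), and Ddx59 (62.3), all positive in 12 of 12 pairs, with Tmem202 read from the same peaks as Hexa, which encodes a lysosomal hexosaminidase subunit.

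In the opposite direction the largest differences included homeobox and forkhead genes. The H3K27ac percentile of Hoxa7, a homeobox gene of body axis patterning, was 1.15 at the lowest, 19.1 at the median, and 32.0 at the highest, and its H3K4me3 percentile was 51.0, 85.4, and 98.8. The marks did not overlap, and the rank difference was −63.5 points (SE, 4.47; limma adjusted P=1.04e-08; negative in 12 of 12 pairs). The same direction held in every pair that had both marks for Hoxb7 (−63.4 points, 11 pairs), Zfp521 (−60.8, 10 pairs), the phosphatase gene Ptpru (−60.8, 10 pairs), Igf2bp3 (−59.7, 12 pairs), Spry1 (−59.5, 9 pairs), Tcp11 (−56.8, 12 pairs), Foxj1, a regulator of motile cilia (−56.7, 12 pairs), Rrm2, a ribonucleotide reductase subunit (−56.4, 11 pairs), and Pitx3 (−55.6, 12 pairs). For Spry1, an inhibitor of receptor tyrosine kinase signals whose promoter is printed above, H3K27ac percentiles ran from 1.95 to 35.8 and H3K4me3 percentiles from 41.1 to 82.3.

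**Figure D4:**
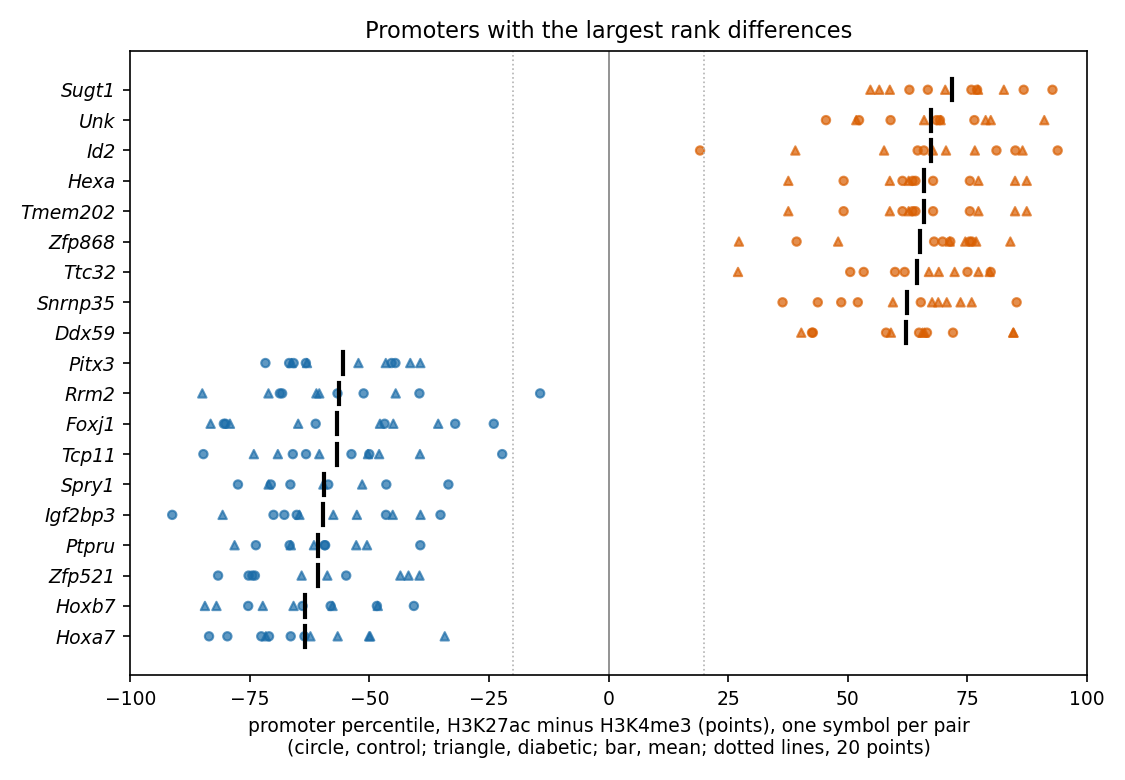
Rank difference (H3K27ac percentile minus H3K4me3 percentile, points) of genes among the 10 called with the largest mean in each direction; symbols are pairs (circles, control; triangles, diabetic), bars are means, and dotted lines mark 20 points. No symbol crossed 0: the means ran from 71.9 for Sugt1 to −63.5 for Hoxa7.

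A list of 30 developmental regulators was counted as a group: 17 of its 21 genes with both marks in at least 8 pairs were called with H3K4me3 higher (81.0%, compared with 17.6% of all tested genes) and 0 with H3K27ac higher (compared with 15.8%), with a median of −32.2 points, compared with 1.49 over all tested genes. When both marks were required in all 12 pairs, 5 genes of the list were left, of which 2 were called for H3K4me3, and the median was −11.5 points. Hoxd13, Pax6, and Foxc1, which pattern limb, eye, and mesoderm, were steady for H3K4me3 only, with rank differences of −48.8, −43.9, and −46.8 points. Of the 30 genes, 4 were steady for neither mark and 20 changed class between pairs. This list and those below were chosen with earlier results of these data known. Their shares beside those of all genes are therefore descriptions and no independent test. Ranked by fold enrichment, without control pair 5, or without control pair 3 and diabetic pair 3, a single gene of the list was called for H3K27ac.

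The inflammatory genes were then examined in the 7 lists of cytokines, chemokines, effector enzymes, NF-κB pathway and feedback genes, pattern recognition genes, interferon response genes, and activation surface genes. These lists, too, were chosen with earlier results known, so their shares describe and do not test. Of 166 listed genes 164 matched the annotation: 25 were steady for both marks, 2 for H3K27ac only, 0 for H3K4me3 only, and 75 for neither, and 62 changed class. Neither mark was thus steady at 45.7% of these genes, close to the 44.4% of all genes, and both marks at 15.2%, compared with 21.7%. Both marks reached the 8 pairs needed for a test at 104 genes, so that the other 60 have no test. H3K27ac ranked higher at 30 of the 104 (28.85%, compared with 15.8% of all tested genes) and H3K4me3 at 2 (1.92%, compared with 17.6%), and the median rank difference was 11.95 points. Without control pair 5 the counts were 29 and 3 of 101, and without control pair 3 and diabetic pair 3 they were 28 and 1 of 102. Ranked by fold enrichment, H3K27ac was higher at 31.7% of the 104, compared with 25.4% of all tested genes, so that the list lay nearer to the background. With percentiles among all genes that had the mark, H3K27ac was higher at 22 (21.2%, compared with 10.9%) and H3K4me3 at 3, with a median of 8.60 points.

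The NF-κB pathway and feedback list was the most fully marked. Of its 22 genes, 15 were steady for both marks and 1 for neither, all 22 were tested, and 9 were called, each with H3K27ac higher (40.9%, compared with 15.8% of all tested genes; median of the list, 14.6 points). They comprised the NF-κB subunit genes Rel (35.6 points), Rela (30.8), Nfkb1 (27.5), and Relb (22.3), the stress-induced repressor Atf3 (38.7), and the feedback inhibitors Nfkbia (30.95), Dusp1 (27.4), Socs1 (27.15), and Tnip1 (24.3). Nfkbia encodes the inhibitor that holds NF-κB in the cytoplasm, and its H3K27ac percentile was 89.7 at the lowest, 94.9 at the median, and 99.7 at the highest, whereas its H3K4me3 percentile was 23.2, 65.5, and 94.8. H3K27ac was thus near the top in every pair and H3K4me3 spread widely, with overlapping ranges and a higher H3K27ac percentile in 11 of 12 pairs (SE, 5.60; limma adjusted P=0.000131). Other feedback genes were high for both marks and not called: Nfkbiz (median percentiles of 93.3 for H3K27ac and 83.2 for H3K4me3; 8.25 points), Tnfaip3 (96.4 and 87.1; 8.04 points), and Socs3 (67.2 and 74.7; −8.09 points). Tnfaip3, which encodes the deubiquitinase A20, was called at 24.03 points when peaks were ranked by fold enrichment. Without control pair 3 and diabetic pair 3, 8 genes of the list were called and Relb was not (18.4 points), by fold enrichment Nfkb1 was not (18.5 points), and with percentiles among all genes that had the mark 7 were called for H3K27ac and 1 for H3K4me3.

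Pattern recognition genes, which sense microbial products, held the list members steady for H3K27ac only. Every tested gene of that class was called for H3K27ac, so the calls of Irak1 and Ly96 restate the class. Irak1, a kinase downstream of Toll-like receptors, had H3K27ac percentiles from 49.7 to 82.5 (median, 69.8) and H3K4me3 percentiles from 7.09 to 39.0 (median, 20.6), with no overlap (45.6 points; SE, 4.20; limma adjusted P=1.14e-07; 12 of 12 pairs). Ly96, which encodes the LPS coreceptor MD-2, had H3K27ac percentiles from 44.4 to 79.1 and H3K4me3 percentiles from 9.52 to 51.8, and the ranges overlapped (43.2 points; 11 of 11 pairs). Tlr2 had H3K27ac percentiles from 51.7 to 91.0 (median, 66.9) and H3K4me3 percentiles from 19.6 to 68.3 (median, 41.0), and H3K27ac was higher in 12 of 12 pairs (27.9 points; adjusted P=7.28e-05). Nod2 (27.7 points), Ifih1 (25.6), Cd14 (22.25), and Irak2 (20.7) were also called, which made 7 of the 16 tested genes of the list (43.75%, compared with 15.8% of all tested genes), and none was called for H3K4me3 (compared with 17.6%). With percentiles among all genes that had the mark 5 were called, and without control pair 3 and diabetic pair 3 Cd14 was not (17.25 points). Tlr4 itself had an H3K27ac promoter peak in 9 full lists and an H3K4me3 peak in 2, and Nlrp3, the inflammasome sensor, had them in 12 and 6 and a top H3K27ac peak in 3.

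Interferon response genes were counted next. Of 26 tested genes of the list, 7 were called for H3K27ac (26.9%, compared with 15.8% of all tested genes) and none for H3K4me3 (compared with 17.6%), with a median of 14.8 points. The called genes were Oasl1 (33.0 points), Bst2 (29.6), Isg20 (27.95), Psmb8 (27.7), Mx1 (26.0), Gbp7 (22.1), and Rsad2 (21.2). By fold enrichment 9 were called (34.6%, compared with 25.4%), and with percentiles among all genes that had the mark 5 were (19.2%, compared with 10.9%). Irf1, a transcription factor gene induced by interferons and steady for both marks, had H3K27ac percentiles from 43.5 to 94.4 (median, 80.3) and H3K4me3 percentiles from 42.3 to 90.6 (median, 71.4), almost the same range (7.46 points, not called). The transcription factor gene Irf8 (9.62 points) and the ubiquitin-like Isg15 (6.47) were not called either.

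Most cytokine and chemokine promoters stood below the strongest peaks of both marks. Of 24 cytokine genes, 14 were steady for neither mark (58.3%, compared with 44.4% of all genes) and 1 for both (4.17%, compared with 21.7%). Of 18 chemokine genes, 13 were steady for neither (72.2%) and 0 for both. Il1b, the gene of interleukin-1β, had an H3K27ac promoter peak in 2 of 12 full lists and an H3K4me3 peak in 1. Il6 had them in 6 and 3 lists, Tnf in 12 and 7, Il10 in 12 and 7, Il18 in 5 and 3, Il1rn in 10 and 0, and Cxcl10 in 12 and 7. None of these had both marks in 8 pairs and none was tested. Of all 24 untested cytokine and chemokine genes, 20 had an H3K27ac promoter peak in more lists than an H3K4me3 peak. Il12a and Csf2, named after their values were seen, went the other way with 6 and 10 lists each, and Cxcl9 and Il19 had neither mark in any list. The same share was not computed over all untested genes, so these counts cannot be read as a trait of cytokine and chemokine genes. Among those tested, the p40 gene Il12b (6.96 points), Ccl5 (12.4 points; adjusted P=0.0504; positive in 10 of 11 pairs), and Ccl2 (10.7 points, 8 pairs) were not called. Called were Gdf15 (34.1 points), Cxcl16 (35.7), and the neutrophil attractant Cxcl2 (23.6) for H3K27ac, and Lif (−25.5) for H3K4me3. These were 1 and 1 of 10 tested cytokine genes (10.0% each) and 2 and 0 of 8 tested chemokine genes, compared with 15.8% and 17.6% of all tested genes. By fold enrichment, or without control pair 6 and diabetic pairs 1 and 2, 3 cytokine genes were called for H3K27ac.

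Effector enzymes and surface genes were mixed. Nos2, the inducible nitric oxide synthase, had H3K27ac percentiles from 13.5 to 78.3 and H3K4me3 percentiles from 16.6 to 59.5 and was not called (5.65 points; positive in 8 of 12 pairs), and neither was Ptgs2, which encodes cyclooxygenase-2 (10.7 points). Ptges (31.65 points) and Hmox1 (20.3) were called for H3K27ac and the gelatinase gene Mmp9 (−21.8) for H3K4me3, out of 13 tested (15.4% and 7.69%, compared with 15.8% and 17.6% of all tested genes). By fold enrichment neither Ptges (9.91 points) nor Hmox1 (17.1) was called, and without control pair 3 and diabetic pair 3 neither Hmox1 (18.9) nor Mmp9 (−14.6) was. Acod1 had an H3K27ac promoter peak in 4 full lists and no H3K4me3 peak, and Cybb had neither. Of the surface genes, Cd274, which encodes PD-L1 (43.2 points), and Il15ra (24.5) were 2 calls among 9 tested (22.2%, compared with 15.8% of all tested genes). The costimulatory receptor gene Cd40 had a higher H3K27ac percentile in 12 of 12 pairs (17.9 points; limma adjusted P=0.000381) but stayed under the 20-point limit. Cd86 (6.20 points) and the class II transactivator Ciita (−5.01) were not called.

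**Figure D5:**
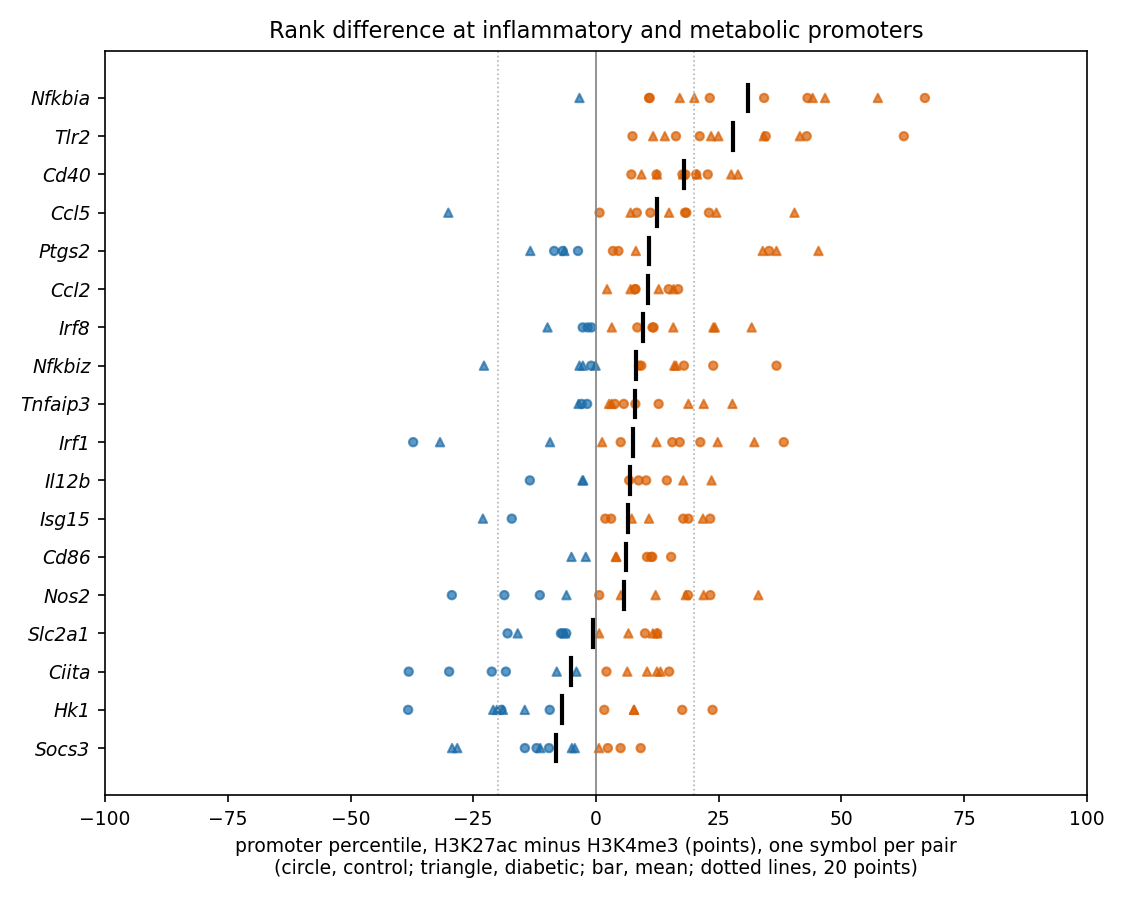
Rank difference (H3K27ac percentile minus H3K4me3 percentile, points) of named inflammatory and glucose metabolism genes that were tested; symbols are pairs (circles, control; triangles, diabetic), bars are means, and dotted lines mark 20 points. Nfkbia (30.95 points) and Tlr2 (27.9) lie beyond the 20-point line, whereas Hk1 (−6.92) and Socs3 (−8.09) lie left of 0.

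Promoter letters were counted as well. The 300-base windows were searched on both strands, overlaps allowed. TATAAA, the core of a TATA box, was found in 12.65% of all promoters and 23.2% of the 164 inflammatory promoters, and in 32.0% of the 75 inflammatory promoters with neither mark, compared with 19.7% of all promoters with neither mark. The κB-type word GGGANTTTCC was found in 0.438% of all and 7.93% of inflammatory promoters. The interferon response core GAAANNGAAA was found in 3.55% of all and 17.1% of inflammatory promoters. The AP-1 word TGANTCA was found in 6.91% and 12.8%. The word AGGAAGT, which PU.1 reads, was found in 9.34% and 17.1%. In the windows printed above, Nfkbia holds GGGAATTTCC on the reverse strand from position −29 relative to the start, Il6 holds GGGATTTTCC from −44 and TGAGTCA from −249, and Il1b holds TATAAA from −31. Nfkbia also holds TATAAA on the reverse strand from position 19. These matches describe letters only, and in genes with several starts the window need not be the marked promoter.

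Comparator lists were counted the same way. Of 20 glucose metabolism genes, 10 were steady for both marks (50%, compared with 21.7% of all genes). Eno1 (25.9 points), Hif1a (20.8), and Pgk1 (20.4) were called for H3K27ac among 19 tested, which is the same share as that of all tested genes (15.8%), and with percentiles among all genes that had the mark 1 gene was called for each mark. Hk1, the first hexokinase gene, was steady for both marks with median percentiles of 63.5 for H3K27ac and 75.5 for H3K4me3 (−6.92 points, not called). The glucose transporter gene Slc2a1 was also steady for both (−0.529 points), and Hk3 had an H3K27ac promoter peak in 5 full lists and no H3K4me3 peak. Of 13 alternative activation genes, linked to interleukin-4, 7 were steady for neither mark (53.85%, compared with 44.4% of all genes), among them Arg1 (H3K27ac peak in 10 full lists, H3K4me3 in 7) and Mrc1 (9 and 3). Of the 6 tested genes of this list, 2 were called for H3K27ac (33.3%, compared with 15.8% of all tested genes). The list median was 13.85 points. Socs2, steady for H3K4me3 only (−39.5 points), was the 1 gene called for H3K4me3 (16.7%, compared with 17.6%). Without control pair 3 and diabetic pair 3, or with percentiles among all genes that had the mark, 1 gene was called for each mark. Of 20 ribosomal protein genes, 9 were steady for both marks (45%, compared with 21.7% of all genes) and 5 were called for H3K27ac (25%, compared with 15.8% of all tested genes). By fold enrichment 9 of them were called (45%, compared with 25.4%).

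The label of macrophages was checked on marker genes, which were also chosen with earlier results of these data known. Of 20 macrophage markers, 6 were steady for both marks and 6 for neither (30% each, compared with 21.7% and 44.4% of all genes), and 7 of 15 tested were called for H3K27ac (46.7%, compared with 15.8% of all tested genes), among them Cebpb (51.9 points), Sirpa (37.7), Cd68 (37.7), and the growth factor receptor gene Csf1r (33.1). Mertk (−32.6 points) and Fcgr3 (−31.4) were called for H3K4me3. Neither mark was steady at 9 of 10 T-cell, 7 of 10 B-cell, 9 of 10 neutrophil granule, 8 of 10 erythroid, 5 of 8 dendritic, and 9 of 10 mesenchymal and endothelial markers, compared with 44.4% of all genes. Of those markers, 1 T-cell, 2 B-cell, 4 neutrophil granule, 2 erythroid, 4 dendritic, and 3 mesenchymal and endothelial genes were tested. None was called for H3K27ac, but they are too few to set against the 15.8% of all tested genes. By fold enrichment 1 of the 2 B-cell genes was. H3K4me3 was called at 1 B-cell, 1 neutrophil granule, 1 erythroid, 2 dendritic, and 1 mesenchymal and endothelial gene (17.6% of all tested genes). Both marks were steady at 1 B-cell, 1 erythroid, and 1 mesenchymal and endothelial marker. Pax5, a B-cell factor, and Zbtb46, a dendritic cell factor, were steady for H3K4me3 only (−40.4 and −52.9 points). Their part in any result above was not tested.

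Sites were compared as 17514 regions, made by merging top peaks found in at least 2 of the 24 lists, of which 13491 (77.0%) were promoter and 4023 (23.0%) distal. A region was called for a mark by an exact McNemar test over pairs, at an adjusted P under 0.05. Among distal regions 169 (4.2%) were called for H3K27ac and 42 (1.04%) for H3K4me3, and among promoter regions 189 (1.4%) and 355 (2.63%). The test had little room: every call rested on at least 10 pairs that all pointed one way. With control pair 5 left out, or control pair 3 and diabetic pair 3, the adjusted test made no call, whereas 588 and 456 distal regions for H3K27ac and 225 and 198 for H3K4me3 still had an unadjusted exact P under 0.05 (626 and 262 with all pairs). Both marks were held in at least 10 pairs by 4103 promoter regions but by 42 distal ones.

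Distal regions that split cleanly numbered 39 with an H3K27ac top peak in all 12 pairs and an H3K4me3 top peak in none, 3 with the reverse, and 7 with both marks in all 12. The highest-ranked H3K27ac sites had as their nearest coding genes Anp32e (chr3:95950546-95952316, intergenic), Acta1 (chr8:123879443-123886019, intronic), the AP-1 gene Junb (chr8:84981010-84983807, intergenic, 2292 bp from its start), Rps6ka1 (chr4:133909939-133911358, intergenic), and Pgpep1 (chr8:70644237-70653132, exonic). At the Junb site the percentile among all peaks of a list (0 where it had none) was 97.5 ± 2.16 for H3K27ac and 73.0 ± 28.5 for H3K4me3, so that a weaker H3K4me3 peak was present in most pairs (11 of 12 full lists). The 3 H3K4me3 sites had as their nearest coding genes Tchh (chr3:93443349-93448171, exonic), Gm21863 (chr12:20232523-20234784, intronic), and Neurog2 (chr3:127625128-127626605, intergenic), a neuronal regulator. The Tchh site lay 1019 bp from a start, just beyond the promoter limit. The Gm21863 site lay 278018 bp from the start of that gene but 1334 bp from another annotated start. The Neurog2 site lay 6530 bp from a start. The distal regions with both marks in all pairs included sites nearest Gm21119 (chr8:20549975-20551162), Gm3435 (chr17:15023349-15025677), 9030025P20Rik (chr17:14992028-14994606), and Rnf19b (chr4:129048410-129050398) and a site nearest Pura. All coordinates are GRCm38.

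The distal calls of the marks also differed in setting. Regions called for H3K27ac had a median width of 3037 bp and lay a median of 7334 bp from a start, 49.1% of them in introns and 6.51% in exons. Regions called for H3K4me3 had a median width of 1728 bp and lay a median of 4949 bp from a start, 31.0% in introns and 26.2% in exons. All distal regions had a median width of 1348 bp and lay a median of 7437 bp from a start, 44.8% in introns and 13.0% in exons. The H3K27ac calls were thus near all distal regions in distance and intron share. A CpG ratio of 0.6 or more was found in 7.10% of the H3K27ac windows, 73.8% of the H3K4me3 windows, 78.6% of those with both marks in at least 10 pairs, and 26.25% of all distal windows. The Nos2 window printed above has 5 CG pairs and the Neurog2 window has 17. An H3K4me3 peak was present in at least 10 full lists at 127 of the 169 H3K27ac regions, compared with 2588 of all 4023 distal regions.

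Distal sites near inflammatory genes were read from the same calls. Of 73 distal regions whose nearest coding gene was in the inflammatory lists (45 genes), 8 were called for H3K27ac (10.96%, compared with 4.2% of all distal regions). None was called for H3K4me3 and none held both marks in at least 10 pairs, but each of these made up 1.04% of all distal regions, so that 73 regions are too few to read a difference. The site 22634 bp from Nfkbia (chr12:55463447-55469176, intergenic) had an H3K27ac top peak in 12 pairs and an H3K4me3 top peak in none, as did a site 7383 bp from the phosphatase gene Dusp1 (chr17:26569511-26572693, intronic). A site 1882 bp from Nos2 (chr11:78916691-78918905, intergenic) and sites nearest Bcl3 (chr7:19829328-19833136) and Tlr2 (chr3:83863989-83865806) had H3K27ac in 11 pairs and H3K4me3 in none. A further site of Dusp1 (chr17:26509981-26515327) and a site nearest Atf3 (chr1:191251249-191253741) had 10 and none, and that nearest Mmp14 (chr14:54442830-54444726) had 12 and 2. At their promoters, Nos2 had an H3K27ac top peak in 8 pairs and Tlr2 in 12. The nearest gene is a position and no statement of which gene a site acts on.

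Diabetic and control pairs did not differ detectably in the 5 measures tested or in the rank difference of any gene tested. Genes with both marks made up 31.7% ± 4.18 in 6 diabetic and 31.4% ± 3.93 in 6 control pairs (two-sided exact permutation over all arrangements, P=0.911), and rho was 0.593 ± 0.0889 and 0.557 ± 0.117 (exact P=0.576). The largest contrast was in distal H3K27ac top peaks that overlapped H3K4me3, 22.7% ± 4.60 in diabetic and 16.8% ± 5.76 in control pairs (exact P=0.0823, adjusted P=0.411 over 5 measures), and the ranges overlapped. H3K4me3-only genes (8.80% ± 1.66 and 9.61% ± 1.77; exact P=0.422) and H3K27ac-only genes (7.12% ± 1.19 and 8.23% ± 1.43; exact P=0.1797) did not pass either. By gene, the rank difference was called different between the disease groups by limma at 0 of 13375 genes (0.0%), and 721 had an unadjusted P under 0.05. Ranked by fold enrichment 663 did, without control pair 5 it was 667, without control pair 6 and diabetic pairs 1 and 2, whose H3K4me3 scaling is unclear, 742, and without control pair 3 and diabetic pair 3 it was 659, with 0 called each time.

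Of the other cell states, unstimulated BMDMs (11 pairs) and HSCs (marrow depleted of mature lineages, 12 pairs) were set beside the stimulated cells. By the check above, unstimulated control libraries 5 and 6 for H3K27ac also went against their labels. Genes with both marks made up 31.5% ± 3.87 in stimulated BMDMs, 32.4% ± 2.48 in unstimulated BMDMs, and 30.7% ± 2.76 in HSCs (permutation with 100000 resamples, P=0.536 and P=0.538). Distal H3K27ac top peaks with H3K4me3 were also close in the 3 states (19.7% ± 5.82, 21.1% ± 7.22, and 19.0% ± 5.57; permutation, P=0.626 and P=0.741). Mean rho was 0.575 in stimulated BMDMs, 0.602 in unstimulated BMDMs (P=0.516), and 0.461 in HSCs (P=0.0294, adjusted P=0.176 over 6 tests). The contrast with HSCs passed without control pair 3 and diabetic pair 3 (0.147; adjusted P=0.0301), and with the top 20000 peaks the distal overlap did (8.10 points; adjusted P=0.00066). A comparison added after the shares were seen did separate the states: distal share was higher for H3K27ac than H3K4me3 by 4.59 points ± 2.51 in stimulated BMDMs, in 12 of 12 pairs, but by −2.02 points ± 3.41 in HSCs, where 2 of 12 pairs were positive (permutation, P=3e-05, adjusted P=6e-05 over 4 tests). In unstimulated BMDMs it was 2.97 points ± 2.11, which did not differ from stimulated BMDMs beyond the spread (permutation, P=0.110). The difference between these BMDM states was 1.63 points, and 1.81 points without stimulated control pair 5. This added comparison was run only on the top 10000 peaks by −log10 p. Within stimulated BMDMs the distal difference changed sign by fold enrichment and in the lists as deposited. The HSC H3K4me3 lists ran shorter, with 13730 to 145750 peaks, compared with 51382 to 277213 in stimulated BMDMs. In the shortest, diabetic HSC pair 6, the H3K4me3 distal share was 18.5%, the highest of the HSC pairs. The part of list length was not tested.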

How the data were processed

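Chromatin immunoprecipitation followed by sequencing (50-bp single reads) of H3K27ac (ab4729) and H3K4me3 (ab8580) in stimulated BMDMs was read from the deposited peak lists, 1 per library. The submitters' processing notes name Trim Galore 0.3.3, cutadapt 1.8, FastQC 0.11.3, Bowtie2 2.2.6, Picard 2.18.14 and 2.19.2, bedtools 2.19.1, MACS2 2.2.7.1, and the builds GRCm38 and mm10, with no role or order. Peaks were called per library against its input. The deposited columns are a whole-number score derived from the q value, a ratio (the authors' fold enrichment at the summit), and the −log10 p and −log10 q. They rate peaks within a list only, so percentiles were compared and never signal. The lists end near a −log10 q of 1.30. They hold no read totals, so the depth and any counting interval are unknown.

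A peak was 1 interval with its strongest summit, and overlap meant at least 1 bp. Promoters used 93513 starts of GENCODE M21 on 21 chromosomes. Paired measures used exact sign-flip permutation, genes used limma 3.58.1 in R 4.3.3 (at least 8 pairs, adjusted P under 0.05, 20 points), regions used the exact McNemar test, disease used exact permutation, and cell states used 100000 resamples, with Benjamini-Hochberg adjustment. On simulated data with 200 changed genes among 13389, limma called 181 of them and 4 others. P values measure the spread between samples, which may be technical. The pairing rests on a shared input in the peak names. Over 10539 genes the deviations of the marks from their means correlated at 0.208 to 0.532 within a pair (median, 0.363), above every other partner in 12 of 12 pairs. By rho itself the H3K4me3 library of the same pair was the best partner in 4 of 12 pairs, and by overlap of marked promoters in 2.

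The rule for named genes took 34 inflammatory, alternative activation, and metabolic genes, the 10 genes with the largest difference in each direction, list genes with a steady single mark, called list genes, and the top 5 distal regions of each kind (7 where an inflammatory gene was nearest). Some of these genes are not reported here. Members and lists were chosen with earlier results of these data known. Promoter windows matched RefSeq entries for 16505 of 21938 genes, so content was computed from GRCm38.p6 sequence at the outermost GENCODE start of each gene.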

Additional observations from a re-analysis of the deposited data

Results flagged for a closer look

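Within each disease group of pairs, the highest or lowest value was marked when it lay too far from its neighbor for the range of the group (Dixon's criterion), which chance does in about 1 of 20 groups. It was marked in 16 of 125 groups (10 of 32 for summary measures, 6 of 93 for genes). Control pair 3 lay apart from the other 5 control pairs in promoter share for H3K27ac (34.19%, next 39.37%) and H3K4me3 (36.55%, next 40.96%), in distal share for H3K4me3 (15.76%, the others 7.91% to 10.78%), and in median H3K4me3 promoter peak width (684 bp, next 1017 bp). Diabetic pair 3 lay apart from the other 5 diabetic pairs in promoter share for H3K27ac (32.3%, next 38.57%) and H3K4me3 (35.44%, next 40.83%), in genes with both marks (23.64%, next 31.78%), in distal share for H3K27ac (29.1%, next 16.26%) and H3K4me3 (18.93%, next 10.7%), and in H3K4me3 promoter peaks with H3K27ac (60.58%, next 73.27%).

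Single pairs also lay apart in the rank difference of named genes. Il12b stood at −13.47 points in control pair 1 (the others 6.76 to 14.44), Ptgs2 at 35.28 in control pair 4 (the others −8.52 to 4.58), and Zfp868 at 39.33 in control pair 4 (the others 68.08 to 75.97). Ttc32 stood at 27.08 points in diabetic pair 6 (the others 67.0 to 79.7), Zfp521 at −54.85 in control pair 4 (the others −81.64 to −73.94), and Pax6 at −84.61 in control pair 3 (the others −47.77 to −37.79). Leaving out control pair 3 and diabetic pair 3 changed the call of none of these 6 genes.

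The contrast of the marks differed between stimulated BMDMs and HSCs by a test of the difference itself, chosen after the shares were seen. The distal share of H3K27ac minus that of H3K4me3 was 6.61 points higher in stimulated BMDMs (4.59 compared with −2.02; permutation, adjusted P=6e-05), and 6.79 points higher without control pair 5. The promoter share of H3K4me3 minus that of H3K27ac was 4.58 points higher (1.53 compared with −3.05; permutation, adjusted P=6e-05). Both contrasts were tested only on the top 10000 peaks by −log10 p. Within stimulated BMDMs both differences changed sign by fold enrichment. The HSC H3K4me3 lists ran shorter than those of stimulated BMDMs, and the part of list length was not tested.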

How the results depend on the processing

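Of 367 values of 29 summary results under other settings, 285 were the same, 26 reversed, 50 moved, 2 weakened, and 4 strengthened. For a tested difference, the same means that direction and call were kept. For a count, it means a value within a set ratio of the main count. Of 842 values of 111 single genes, 811 kept their call or its absence. Among these genes 1 value gained its call (Tnfaip3, 24.03 points by fold), 30 lost it, and none changed sign where called. The losses include 29 values of 19 of the 74 called list genes over 8 settings. The cause of each change below was not tested unless stated. Ranked by fold, the promoter and distal share differences were −6.04 and −10.0 points, the summit difference −8.33 bp, the disease differences −2.62 points (both marks) and −0.0393 (rho), the both-mark difference from HSCs −6.80 points, median rho 0.314, genes steady for both marks 216 and for H3K27ac only 298, and genes with H3K27ac higher 3405. With the top 5000 peaks they were −0.107 and 1.31 points, −3 bp, differences from HSCs of −0.318 and −3.43 points and −0.0338 in rho, and 554, 103 (H3K4me3 only), and 181 steady genes. With the top 20000 peaks the summit difference was 7.63 bp, the distal overlap and rho differed from HSCs by 8.10 points and −0.0104, and 8710, 655, and 50 genes were steady. In the lists as deposited the distal share difference was −0.582 points, the disease differences −3.08 (both) and 1.40 points (H3K4me3 only), the distal overlap differed from HSCs by 32.4 points, and 12402, 187, 10, and 4562 (neither) genes were steady. With both marks in all 12 pairs, 1532 genes had H3K4me3 higher, with no size limit 3803 and 3692 genes were called, and median rho among top-peak genes was 0.199.

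Without control pair 6 and diabetic pairs 1 and 2, the both-mark disease difference was −0.308 points. In a setting chosen after seeing the data, without control pair 3 and diabetic pair 3, the differences from unstimulated BMDMs were 0.626 points (both) and 0.00578 (rho), rho differed from HSCs by 0.147, and 562 and 210 genes were steady for 1 mark. Leaving out each pair in turn gave 1.38 to 1.65 points (promoter share), 4.09 to 4.82 points (distal share), −0.182 to 1.64 bp (summit), −1.17 to 1.82 points (both marks by disease, below 0 without control 3 at −1.17, diabetic 6 at −0.628, diabetic 4 at −0.0901, and diabetic 1 at −0.0555), and −0.00541 to 0.0599 (rho by disease).

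Region calls of the exact McNemar test fell to 0 of every kind with the top 5000 peaks and by fold, which kept all 12 pairs. They also fell to 0 without control pair 5, the 3 pairs of unclear scaling, or the pairs 3. In these last settings the smallest exact P that fewer pairs allow is higher. Unadjusted, 111 to 859 distal regions for H3K27ac and 62 to 440 for H3K4me3 had an exact P under 0.05 over all of these settings. With the top 20000 peaks, 814 promoter regions (H3K4me3) and 778 and 182 distal regions (H3K27ac, H3K4me3) were called, and with regions in at least 6 libraries 307 and 657 promoter and 82 distal (H3K4me3) regions. Without the block that pairs the marks (no replicate block), the promoter share difference of 1.53 points no longer passed, 610 and 1223 promoter and 417 and 173 distal regions were called, and the genes called were 2082 and 2350. By limma without the block, Gbp7 (22.1 points, adjusted P=0.0754) and Spi1 (22.3 points, adjusted P=0.0570) lost their calls, and it changed no other call of the genes and summary results counted here. Depth is unknown, so a missing peak sets no upper limit on a mark.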
